A study of Mus musculus with 9 samples.

Results

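The miR-15/16 seed family, with miR-322 and miR-503, comprises 7 mature mouse miRNAs, miR-15a-5p, miR-15b-5p, miR-16-5p, miR-195-5p, miR-322-5p, miR-497-5p and miR-503-5p. They were taken from a list of names, with genomic copies merged, and make up 7 of the 386 named 5′ ends that were measured in 9 small RNA-seq libraries. A member's level is the number of reads that start at its reference 5′ end, per 1000000 mapped reads (RPMM). All 7 members were placed on the genome. The starts of 5 of them carried the same RPMM values as the entries of these names in the study's tables, whereas miR-322-5p and miR-503-5p were below 100 RPMM in every library and were placed from the mismatches and the spacing of the reads on their hairpins.

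A miRNA pairs with messenger RNAs mainly through its seed, bases 2 to 8 from the 5′ end, so miRNAs with the same seed share many targets. The miR-15/16 family is known for restraining the cell cycle and survival through targets such as cyclins and Bcl2, and loss of the locus that holds miR-15a and miR-16 is a frequent event in chronic lymphocytic leukemia. In library preparation, adapters are ligated to both ends of a miRNA, so that the bases at its ends are the ones that meet the adapters.

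The reference sequences (RefSeq) are shown because the members share their 5′ part and differ towards the 3′ end. The seed is in capitals.

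miR-15a-5p: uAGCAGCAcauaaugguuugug
miR-15b-5p: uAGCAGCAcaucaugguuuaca
miR-16-5p: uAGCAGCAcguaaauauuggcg
miR-195-5p: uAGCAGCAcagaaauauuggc
miR-497-5p: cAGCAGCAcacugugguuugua
miR-322-5p: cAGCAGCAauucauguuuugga
miR-503-5p: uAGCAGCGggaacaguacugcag

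The seed was identical in 6 of the 7 members. miR-503-5p shares bases 2 to 7 with them and differs at base 8 by A8G, where positions count from 1 at the 5′ end and the first base is that of miR-16-5p. Among 1674 distinct mature sequences in the RefSeq table, 10 carry the seed of miR-16-5p. Outside the seed the members form subgroups. miR-16-5p and miR-195-5p were identical at 19 of 21 positions and differ by G10A and U11G. miR-15a-5p and miR-15b-5p were identical at 18 of 22 positions, with the differences A12C, G20A, U21C and G22A, so that 3 of the 4 lie in the last 3 bases. miR-15a-5p and miR-497-5p were identical at 17 of 22 positions and share a stretch of 8 bases near the 3′ end, which is in capitals below.

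miR-15a-5p: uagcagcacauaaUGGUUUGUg
miR-497-5p: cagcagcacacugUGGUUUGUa

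The members are processed from 8 hairpins in 4 clusters, and the reads lay at the following mm9 positions. On the minus strand of chromosome 14, miR-15a-5p lay at chr14:62250912-62250933 and the first copy of miR-16-5p at chr14:62250773-62250794. As annotated in GENCODE M21 on GRCm38, both hairpins are inside the noncoding gene Dleu2, Mir15a in an intron and Mir16-1 overlapping an exon. On the plus strand of chromosome 3, miR-15b-5p lay at chr3:68813697-68813718 and the second copy of miR-16-5p at chr3:68813840-68813861, and both hairpins are annotated in introns of Smc4, which encodes a condensin subunit. miR-497-5p and miR-195-5p lay on the plus strand of chromosome 11 at chr11:70048232-70048253 and chr11:70048564-70048584. No other gene is annotated around these hairpins on that strand, and Mir497b is annotated antisense to Mir497. miR-322-5p and miR-503-5p lay on the minus strand of chromosome X at chrX:50407483-50407504 and chrX:50407204-50407226, with no annotated host gene. The files divide a read of miR-16-5p between the copies on chromosomes 14 and 3, so the contribution of each copy to the mature miRNA cannot be told apart.

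The study compared 3 kits for small RNA library preparation, which are v1.5 and TruSeq from Illumina, with fixed adapters, and NEXTflex V2 from Bioo Scientific, whose adapters end in random bases. RNA came from MIN6, an insulin-secreting mouse beta-cell line of tumor origin grown in 25 mM glucose, and from the liver of a single female C57BL/6J mouse, which was 9 weeks old when purchased and received a saline injection and an overnight fast before collection. There were 3 v1.5 and 3 TruSeq libraries of MIN6, all sequenced on the GAIIx at the same facility and date, 1 NEXTflex library of MIN6 and 1 TruSeq and 1 NEXTflex library of the same liver RNA, all 3 sequenced on the HiSeq. The MIN6 NEXTflex library was made from other MIN6 RNA, on another platform and at another facility than the TruSeq and v1.5 libraries. By the study, that RNA had also served for a TruSeq library on the HiSeq, which is not among these libraries. RNA was extracted with TRIzol at NIH, the facility of the GAIIx libraries, and with a Norgen kit at UNC and from the liver. The preparation therefore cannot be told apart from RNA, extraction, platform and facility in MIN6, nor platform and extraction from tissue within TruSeq.

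The counts summed to between 6923460 and 13158853 in the v1.5 and TruSeq libraries of MIN6 and to between 14426009 and 25638871 in the other 3 libraries. The beta-cell miRNA miR-375-3p was at 64950 to 186331 RPMM in the 7 MIN6 libraries and at 40.0 and 26.7 RPMM in liver, and the hepatocyte miRNA miR-122-5p was at 17244 and 532452 RPMM in liver and at most 2.38 RPMM in the GAIIx libraries, but at 128 RPMM in the MIN6 NEXTflex library. The other marker of each type was less clean. miR-7a-5p (beta cell) was at 782 to 4852 RPMM in the GAIIx libraries and 248933 RPMM in NEXTflex MIN6, and at 6.61 and 678 RPMM in TruSeq and NEXTflex liver. miR-192-5p (hepatocyte) was at 249 to 1428 RPMM in MIN6 and at 82266 and 6026 RPMM in TruSeq and NEXTflex liver. Both NEXTflex libraries held few distinct alignments for their depth (0.982 and 1.25 per 100 counts, against 6.56 to 14.4 in the other libraries). The study calls the v1.5 and TruSeq libraries biological replicates, but the labels name no separate cultures, so the p-values measure only the spread between these libraries. Replicate libraries were not copies of each other, since their counts differed beyond sampling noise (chi-square of 28.9 to 100 for each degree of freedom). Intervals and detection limits given here cover counting error only.

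Between v1.5 and TruSeq in MIN6, members of the family moved in opposite directions. miR-15a-5p and miR-497-5p were higher in the v1.5 libraries, while miR-16-5p, miR-195-5p and miR-15b-5p were higher in the TruSeq libraries. Of the 7 members, 5 passed the filter on low counts and all 5 passed the edgeR test (adjusted p under 0.05), 2 higher and 3 lower in v1.5. In this comparison 90.1% of the 362 entries tested passed, 51.9% higher and 38.1% lower in v1.5, so that a passed test did not set the members apart from other miRNAs. The median log2 fold change was -0.57 over the 5 members and 0.31 over all entries.

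miR-15a-5p was at 128, 127 and 131 RPMM in the 3 TruSeq libraries and at 733, 779 and 817 RPMM in the 3 v1.5 libraries. The groups did not overlap, as was so for 90.3% of all entries tested, and miR-15a-5p rose 6.03-fold in v1.5 (log2 fold change 2.59, SE 0.06, edgeR adjusted p = 1.18e-11). miR-16-5p, its neighbour on the same transcript and the most abundant member, showed the reverse order. It was at 4437, 4513 and 4829 RPMM in the TruSeq libraries and at 1024, 1039 and 1076 RPMM in the v1.5 libraries. Every TruSeq library was above every v1.5 library, and miR-16-5p was 4.39-fold higher in TruSeq (log2 fold change -2.13, SE 0.05, adjusted p = 1.37e-11).

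miR-15b-5p, the partner of the second miR-16 copy, differed least. It was at 398, 441 and 457 RPMM in TruSeq and at 286, 289 and 301 RPMM in v1.5. The groups were apart, with a 1.48-fold higher level in TruSeq (log2 fold change -0.57, SE 0.06, adjusted p = 6.37e-06). miR-15a-5p and miR-15b-5p, which differ mainly in their last 3 bases, thus fell on opposite sides of 0.

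The members of the chromosome 11 cluster also diverged. miR-497-5p was at 73.0, 82.4 and 85.4 RPMM in TruSeq and at 267, 256 and 253 RPMM in v1.5, a 3.21-fold rise in v1.5 without overlap (log2 fold change 1.68, SE 0.07, adjusted p = 7.83e-10). miR-195-5p was at 239, 226 and 240 RPMM in TruSeq and at 53.5, 49.1 and 50.3 RPMM in v1.5, again without overlap but 4.61-fold higher in TruSeq (log2 fold change -2.20, SE 0.06, adjusted p = 3.90e-11). miR-16-5p and miR-195-5p, the most similar pair in sequence, thus had close log2 fold changes (-2.13, SE 0.05, and -2.20, SE 0.06).

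**Figure D1:**
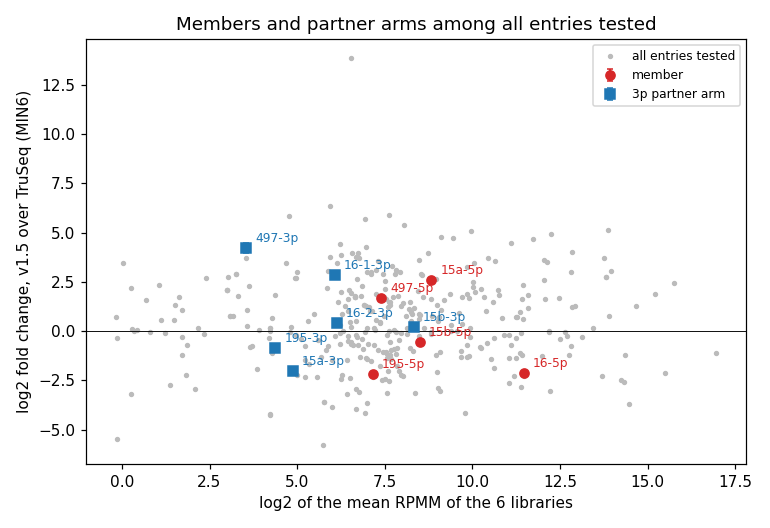
Log2 fold change of v1.5 over TruSeq in MIN6 (y axis; above 0 is higher in v1.5) against the log2 of the mean RPMM of the 6 libraries (x axis) for the 362 entries tested, with the 5 members tested (red circles) and 6 partner arms (blue squares). Bars are standard errors, smaller than most symbols; miR-15a-5p (2.59) and miR-497-5p (1.68) lie above 0, and miR-16-5p (-2.13), miR-195-5p (-2.20) and miR-15b-5p (-0.57) below.

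miR-322-5p and miR-503-5p were near or below detection in MIN6. miR-322-5p had 0, 1 and 2 reads in the TruSeq libraries and 0, 2 and 3 reads in the v1.5 libraries, which is at most 0.289 RPMM. The ratio of v1.5 to TruSeq was 1.22 with an exact 95% interval of 0.237 to 7.85, so that a difference was not detectable at this depth. miR-503-5p had no read in the 3 TruSeq libraries, which allows up to 0.118 RPMM over the group (3 counts), and 6, 8 and 2 reads in the v1.5 libraries (0.476, 0.670 and 0.193 RPMM). Against that limit it was at least 3.90-fold higher in v1.5.

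A ratio of members within a library does not depend on library size. Ratios were taken between members of a cluster, and those with miR-16-5p use the reads of both its copies. The ratio of miR-15a-5p to miR-16-5p was 0.0280 in TruSeq and 0.742 in v1.5 (geometric means, n = 3 each), a 26.4-fold change (log2 ratios -5.16 ± 0.04 and -0.43 ± 0.04, SD). The ratio of miR-15b-5p to miR-16-5p changed 2.97-fold, from 0.0939 to 0.279. The ratio of miR-497-5p to miR-195-5p changed 14.9-fold, from 0.341 to 5.08, and the order within this cluster thereby reversed. The two-sided exact permutation test gave p = 0.1 for each (0.1 after Benjamini-Hochberg adjustment over 3 ratios), the smallest value that 3 against 3 libraries allow. The ratio of miR-503-5p to miR-322-5p was not computed, because both were near 0. Whether the transcripts themselves differed between the libraries was not tested.

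The composition of the family differed between the preparations. The members summed to 5468 ± 244 RPMM in TruSeq and 2425 ± 68.0 RPMM in v1.5 (SD, n = 3 each). miR-16-5p supplied 84.0% ± 0.212 of this sum in TruSeq and 43.2% ± 0.134 in v1.5. miR-15a-5p supplied 2.36% ± 0.0705 and 32.0% ± 0.882, and miR-497-5p 1.47% ± 0.0744 and 10.7% ± 0.571. The NEXTflex library of MIN6, with a sum of 12149 RPMM, had shares of 82.5% for miR-16-5p, 3.00% for miR-15a-5p and 2.00% for miR-497-5p, which are nearer to those of TruSeq than to those of v1.5.

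**Figure D2:**
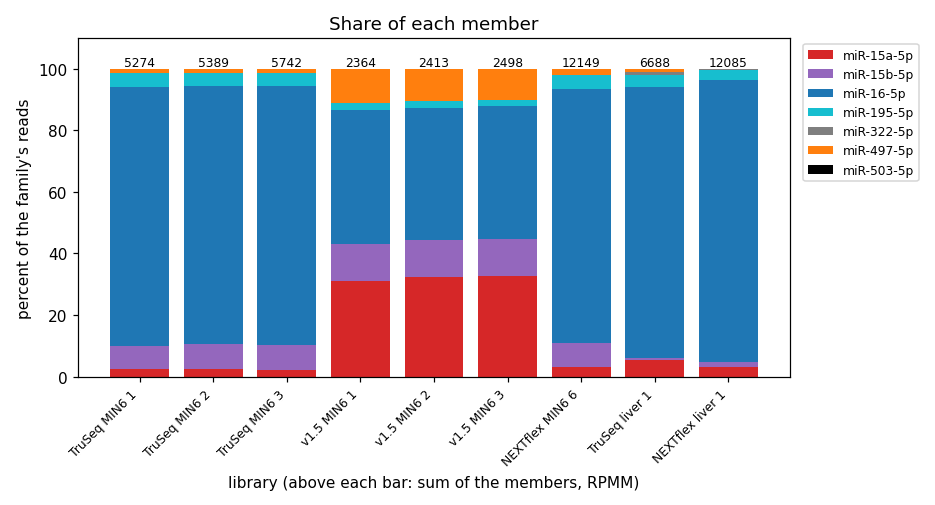
Share of each member in the reads of the family (y axis, percent) in each of the 9 libraries (x axis), with the sum of the members in RPMM above each bar. miR-16-5p (blue) held 43.2% on average in the v1.5 libraries and at least 82.5% in the NEXTflex and liver libraries; miR-322-5p (grey) is visible in the TruSeq liver library only.

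The partner arms of the hairpins, which are the strands usually discarded, did not all follow their 5p arms. Of the 8 partner arms 6 were tested, and 4 were higher and 2 lower in v1.5, against 51.9% and 38.1% of all entries. miR-15a-3p was at 42.3 to 49.8 RPMM in TruSeq and 11.2 to 11.9 RPMM in v1.5, 4.10-fold lower in v1.5 (log2 fold change -2.04, SE 0.09, adjusted p = 2.38e-09) where miR-15a-5p was higher. miR-16-1-3p was at 15.2 to 17.6 RPMM in TruSeq and 108 to 133 RPMM in v1.5, 7.24-fold higher in v1.5 (log2 fold change 2.86, SE 0.10, adjusted p = 3.28e-10) where miR-16-5p was lower. miR-16-5p merges both copies, so there is no 5p value for Mir16-1 alone.

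On both chromosome 11 hairpins the arms moved in the same direction. miR-497-3p rose 18.6-fold, from a mean of 1.12 to 22.1 RPMM (log2 fold change 4.22, SE 0.24, adjusted p = 1.76e-08), more than miR-497-5p. miR-195-3p fell from 26.9 to 14.6 RPMM (log2 fold change -0.88, SE 0.09, adjusted p = 3.12e-06), less than miR-195-5p. miR-15b-3p and miR-16-2-3p were slightly higher in v1.5, where miR-15b-5p and miR-16-5p were lower, with log2 fold changes of 0.21 (SE 0.06, adjusted p = 0.00444) and 0.41 (SE 0.07, adjusted p = 0.000190). With TMM factors, which moved the median of all entries by -0.34, the value of miR-15b-3p turned to -0.14 and that of miR-16-2-3p was 0.06, and neither passed, which left 2 partner arms higher and 2 lower. With DESeq2 size factors miR-15b-3p passed as lower in v1.5 (-0.17, adjusted p = 0.0250) and miR-16-2-3p did not pass (0.03, adjusted p = 0.667), which gave 2 partner arms higher and 3 lower.

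The share of 5p reads on a hairpin (starts within 2 nt summed) also differed between the preparations. On Mir15a it was 73.1% ± 1.62 in TruSeq and 98.5% ± 0.107 in v1.5 (SD, n = 3 each). On Mir15b the 5p arm held 59.0% ± 1.49 in TruSeq but 45.6% ± 0.150 in v1.5, so that the arm with more reads changed. On Mir195a the share went from 89.5% ± 0.797 to 76.2% ± 2.09 and on Mir497 from 97.0% ± 0.173 to 79.5% ± 1.76. The two-sided exact permutation test gave p = 0.1 for each of the 4 hairpins, before and after adjustment, the smallest value possible. In the MIN6 NEXTflex library the 5p share was 99.6% on Mir15a (Wilson 95% interval 99.5% to 99.7%), 87.3% on Mir15b (86.9% to 87.6%), 97.0% on Mir195a (96.7% to 97.3%) and 100% on Mir497 (99.9% to 100%).

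The reads of a member end at several positions, and these 3′ end forms behaved differently between v1.5 and TruSeq. A form is the set of exact reads of 1 length at the reference start. Of 21 tested forms of the members, 8 were higher and 11 lower in v1.5 (edgeR, adjusted over 1723 forms, of which 54.9% were higher and 34.6% lower). The median log2 fold change of all forms was 0.73, and TMM factors moved it by -0.61 to 0.12, with 8 forms of the members higher and 12 lower. With at least 50 counts in 3 libraries, 6 were higher and 10 lower. The log2 values of forms below are on the scale of mapped reads. Forms of the same miRNA passed in both directions in 4 of the 5 members, miR-15a-5p, miR-15b-5p, miR-16-5p and miR-497-5p. This was so for 50.6% of the 330 miRNAs with at least 2 forms tested.

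For miR-15a-5p the 3 most abundant forms had lengths of 21, 22 and 24 nt. Their ends are shown because the forms differ only there, with the last 3 bases in capitals.

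miR-15a-5p, 21 nt: uagcagcacauaaugguuUGU
miR-15a-5p, 22 nt: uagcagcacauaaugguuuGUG
miR-15a-5p, 24 nt: uagcagcacauaaugguuuguGGA

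The 24-nt form, which reaches 2 bases beyond the reference end into the hairpin, was at 0.903, 1.61 and 0.914 RPMM in the TruSeq libraries and at 342, 378 and 402 RPMM in the v1.5 libraries. It made up 0.967% ± 0.354 of the exact reads of miR-15a-5p in TruSeq and 50.7% ± 0.366 in v1.5 (SD, n = 3 each; log2 fold change 8.39, SE 0.15, adjusted p = 2.16e-21). The 22-nt reference form rose less, from 60.2 ± 1.49 to 295 ± 20.2 RPMM (log2 fold change 2.29, SE 0.08, adjusted p = 1.18e-16). The 21-nt form fell in v1.5, from 43.0, 44.1 and 46.4 RPMM to 13.01, 16.5 and 17.04 RPMM (log2 fold change -1.53, SE 0.11, adjusted p = 4.19e-11). Of the 7 forms of miR-15a-5p tested, the 3 shorter than the reference were lower in v1.5 and the 4 of reference length or longer were higher.

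miR-497-5p showed the same order for its 21-nt and 22-nt forms, which differ by the final A.

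miR-497-5p, 21 nt: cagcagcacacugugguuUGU
miR-497-5p, 22 nt: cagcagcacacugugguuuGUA

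The 21-nt form was at 34.8, 36.7 and 39.7 RPMM in TruSeq and at 16.8, 14.6 and 14.3 RPMM in v1.5, a fall without overlap (log2 fold change -1.28, SE 0.11, adjusted p = 4.38e-10). The 22-nt form was at 34.9, 40.9 and 42.6 RPMM in TruSeq and at 221, 221 and 221 RPMM in v1.5 (log2 fold change 2.48, SE 0.09, adjusted p = 1.05e-16). The 21-nt form therefore held 47.4% ± 1.30 of the exact reads in TruSeq and 6.36% ± 0.531 in v1.5. The rise of miR-497-5p as a whole was carried by its 22-nt form.

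In miR-15b-5p the order was the opposite, and the 21-nt form, which lacks the final A, was higher in v1.5 (6.48 ± 1.25 against 22.04 ± 1.39 RPMM, log2 fold change 1.73, SE 0.14, adjusted p = 1.80e-10), while the 22-nt form was lower (411 ± 34.9 against 257 ± 11.4 RPMM, log2 fold change -0.68, SE 0.08, adjusted p = 3.71e-08). miR-16-5p was mostly of its reference length, with the 22-nt form at 94.2% ± 0.152 of exact reads in TruSeq and 87.6% ± 0.307 in v1.5. Its 21-nt, 22-nt and 23-nt forms were all lower in v1.5, with log2 fold changes of -1.77, -2.24 and -0.99. The other tested forms of miR-16-5p were named after their values were seen. The 17-nt form was lower (-8.55) and the 20-nt form higher in v1.5 (2.77, SE 0.21, adjusted p = 7.30e-11), and the 24-nt form did not pass (-0.13, adjusted p = 0.600). In miR-195-5p the commonest form was 22 nt long in every library, 1 base longer than the RefSeq sequence. The 21-nt and 22-nt forms of miR-195-5p fell by 2.34 and 2.25 on the log2 scale in v1.5, and the 23-nt form, at 1.12 and 1.03 RPMM, had a log2 fold change of -0.09 (SE 0.37) that did not pass (adjusted p = 0.817).

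**Figure D3:**
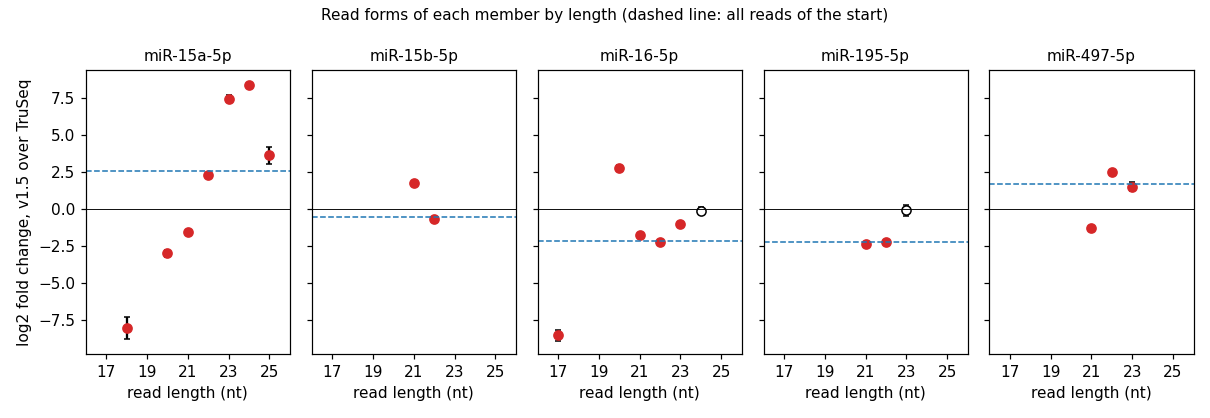
Log2 fold change of v1.5 over TruSeq in MIN6 (y axis) for each read form of the 5 members tested, by read length in nt (x axis). Bars are standard errors, filled red points passed the test and open points did not, and the dashed line is the fold change of all reads of the start; miR-15a-5p goes from -1.53 at 21 nt to 8.39 at 24 nt, while the tested forms of miR-195-5p at 21 and 22 nt stay close to its dashed line.

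The single NEXTflex library of MIN6 had the highest level of 3 of the members among the MIN6 libraries. There are no replicates for this preparation, so fold changes (1 RPMM added to both values) are given without a test. All 5 members with at least 10 RPMM were more than 2-fold higher in NEXTflex than the TruSeq mean, while 35.3% of 343 entries were and 37% were more than 2-fold lower. miR-16-5p was at 10018 RPMM, 2.18-fold the TruSeq mean, miR-15b-5p at 965 RPMM (2.23-fold), miR-195-5p at 559 RPMM (2.37-fold), miR-15a-5p at 364 RPMM (2.81-fold) and miR-497-5p at 243 RPMM (3.00-fold). The 5 folds lay between 2.18 and 3.00, so the proportions among the members changed little from TruSeq.

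Against the v1.5 mean the same NEXTflex values spread widely. miR-195-5p was 10.8-fold and miR-16-5p 9.57-fold higher in NEXTflex, and miR-15b-5p was 3.30-fold higher. miR-497-5p was 0.941-fold, and miR-15a-5p was 2.13-fold lower. Thus 3 of 5 members were more than 2-fold higher and 1 lower, where 24.7% of 344 entries were higher and 46.2% lower. miR-322-5p had 7 reads (0.274 RPMM) and miR-503-5p had no read in the NEXTflex library of MIN6, which allows up to 0.117 RPMM. The 24-nt form of miR-15a-5p made up 16.6% of its exact reads there (Wilson 95% interval 15.8% to 17.4%), between its shares in TruSeq and v1.5, and the 21-nt form of miR-497-5p 4.61% (4.09% to 5.20%).

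**Figure D4:**
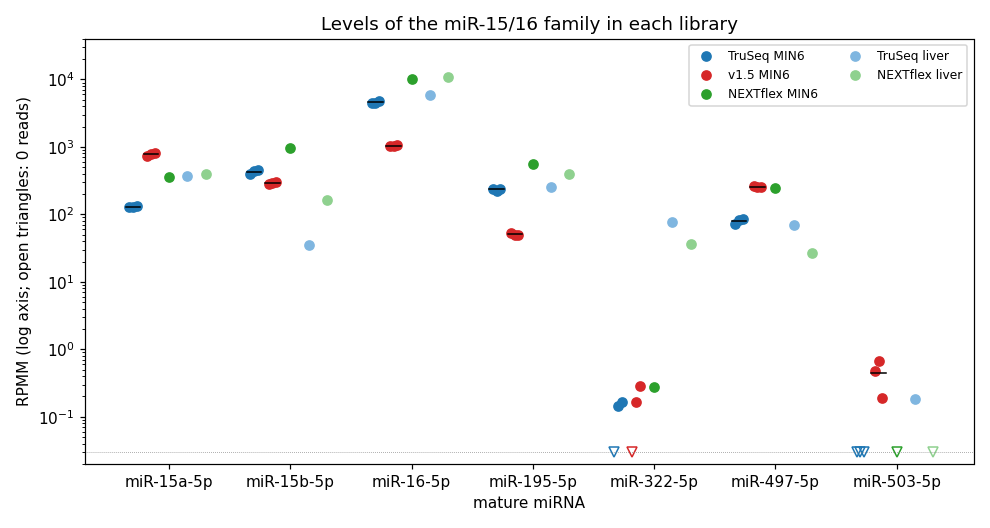
Level of each member in RPMM (y axis, log scale) in every library, grouped by preparation and source; horizontal bars are means of 3 libraries, and open triangles at the bottom stand for libraries with 0 reads. miR-322-5p stands at 76.8 and 36.7 RPMM in liver and at most 0.289 RPMM in MIN6, and the v1.5 libraries (red) lie above TruSeq (blue) for miR-15a-5p and miR-497-5p and below it for miR-16-5p, miR-195-5p and miR-15b-5p.

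In liver, miR-322-5p was the member that stood out. It had 1267 reads (76.8 RPMM) in the TruSeq library and 528 reads (36.7 RPMM) in the NEXTflex library, whereas the MIN6 libraries held 0 to 7 reads each. The ratio of liver to MIN6 was 654 within TruSeq (exact 95% interval 223 to 3175) and 134 within NEXTflex (64.6 to 335). Its partner arm miR-322-3p had no read in the MIN6 libraries of TruSeq or NEXTflex and was at 57.2 and 21.6 RPMM in liver. That is at least 487-fold and at least 184-fold higher against a floor of 3 counts over the MIN6 group. The floor covers counting error only, and the MIN6 NEXTflex library held few distinct alignments for its depth. The 5p arm held 51.6% of the reads of Mir322 in the TruSeq liver library (Wilson 95% interval 49.7% to 53.6%) and 67.7% in the NEXTflex liver library (64.7% to 70.6%). miR-503-5p, from the same transcript, had 3 reads and 0 reads in liver, and miR-503-3p had 33 reads (2.00 RPMM) in the TruSeq liver library and none in the NEXTflex library.

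The other members differed less between liver and MIN6, and miR-15b-5p and miR-497-5p were lower in liver within both preparations. miR-15b-5p was at 35.7 RPMM in the TruSeq liver library, 11.8-fold below the TruSeq MIN6 mean, and at 165 RPMM in the NEXTflex liver library, 5.81-fold below NEXTflex MIN6. Its partner arm was also low, with miR-15b-3p at 6.79 RPMM in the TruSeq liver library, 38.4-fold below the MIN6 mean. It had no read in the NEXTflex liver library, which is at least 686-fold below NEXTflex MIN6 against a floor of 3 counts. That floor covers counting error only, and the NEXTflex liver library held few distinct alignments for its depth. miR-16-5p was 1.28-fold higher in liver within TruSeq (5879 against a mean of 4593 RPMM) and 1.10-fold higher within NEXTflex (11065 against 10018 RPMM). miR-15a-5p, its partner in Dleu2, was 2.84-fold higher in liver within TruSeq and 1.09-fold within NEXTflex. The partner arms went the other way from miR-15a-5p and miR-16-5p within TruSeq, where miR-15a-3p was 26.9-fold, miR-16-2-3p 20.8-fold and miR-16-1-3p 4.43-fold lower in liver. Within both preparations miR-16-5p was thus slightly higher in liver, whereas miR-15b-5p, the neighbour of its second copy, was several-fold lower. Over all entries with at least 10 RPMM in a group, the median fold of liver over MIN6 was 0.174 within TruSeq and 0.0776 within NEXTflex. The fold of miR-15b-5p was 0.0849 within TruSeq, below this median, and 0.172 within NEXTflex, above it.

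The fold changes of the chromosome 11 members differed between the preparations, which was not tested. miR-195-5p was 1.10-fold of the MIN6 mean within TruSeq (258 against 235 RPMM) and 1.42-fold below MIN6 within NEXTflex (394 against 559 RPMM). miR-497-5p was 1.15-fold below MIN6 within TruSeq (69.4 against 80.2 RPMM) and 8.82-fold below within NEXTflex (26.7 against 243 RPMM). As liver over MIN6 its NEXTflex fold was 0.113, above the median of all entries (0.0776). Among the 6 members with at least 10 RPMM, 2 were more than 2-fold higher and 1 lower in liver within TruSeq (24.2% and 61.4% of 355 entries), and 1 was higher and 2 were lower within NEXTflex (19.7% and 66.1% of 360 entries).

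Liver is a mixture of cell types, and fewer cells of a type cannot be told apart from less RNA per cell. Markers of other cells moved with tissue. The 2 of 4 erythroid markers measured (miR-451 and miR-486-5p) summed to 2.26 to 37.2 RPMM in MIN6 and to 6411 and 1703 RPMM in the TruSeq and NEXTflex liver libraries. The 2 of 4 leukocyte markers measured (miR-142-5p and miR-150-5p) summed to 0 to 5.70 RPMM in MIN6 and to 3965 and 85.4 RPMM in liver, and both were at 0 in the MIN6 NEXTflex library. The 2 endothelial markers, miR-126-3p and miR-126-5p, summed to 84.9 to 287 RPMM in MIN6 and to 8968 and 2725 RPMM in liver. The part of these cells in the liver levels of miR-322-5p, miR-15a-5p and miR-16-5p was not tested.

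Between the preparations in liver, made from the same RNA, miR-15b-5p was 4.53-fold higher in NEXTflex than in TruSeq. miR-16-5p was 1.88-fold and miR-195-5p 1.52-fold higher, and miR-15a-5p was at 398 against 368 RPMM (1.08-fold). miR-322-5p was 2.06-fold and miR-497-5p 2.54-fold lower in NEXTflex. Of 6 members, 1 was more than 2-fold higher and 2 were lower, against 21.8% and 48.3% of 238 entries. Only 1 was lower with 5 RPMM added, with starts within 2 nt summed or with the sum of all counts as library size, and 2 were higher with that library size. Apart from miR-322-3p, which had 311 reads, no partner arm had more than 2 reads in the NEXTflex liver library. There miR-195-3p, at 15.7 RPMM in the TruSeq library, was at least 75.3-fold lower against a floor of 3 counts, which covers counting error only.

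The 21-nt form of miR-15a-5p had a larger share in liver than in MIN6. It made up 66.1% of exact reads in the TruSeq liver library (Wilson 95% interval 64.8% to 67.4%) and 59.1% in the NEXTflex liver library (57.7% to 60.5%), against 37.6% ± 0.383 in TruSeq MIN6 and 16.6% in NEXTflex MIN6. For miR-497-5p the 21-nt form was at 70.7% (67.9% to 73.4%) in the TruSeq liver library and 35.5% (30.7% to 40.6%) in the NEXTflex liver library. Within each preparation the 21-nt share of miR-497-5p was also higher in liver than in MIN6. The 24-nt form of miR-15a-5p was 0.281% in the TruSeq liver library and 2.56% in the NEXTflex liver library. Of 2 forms of miR-15a-5p named after their values were seen, the 25-nt form made up 10.6% of the exact reads in the NEXTflex liver library and 0.0115% in NEXTflex MIN6, and the 23-nt form 5.05% and 0.184%. In the TruSeq liver library the 25-nt and 23-nt forms were at only 0.421% and 0.441%. In v1.5 MIN6 they were at 0.217% ± 0.0511 and 6.77% ± 0.428 (SD, n = 3).

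**Figure D5:**
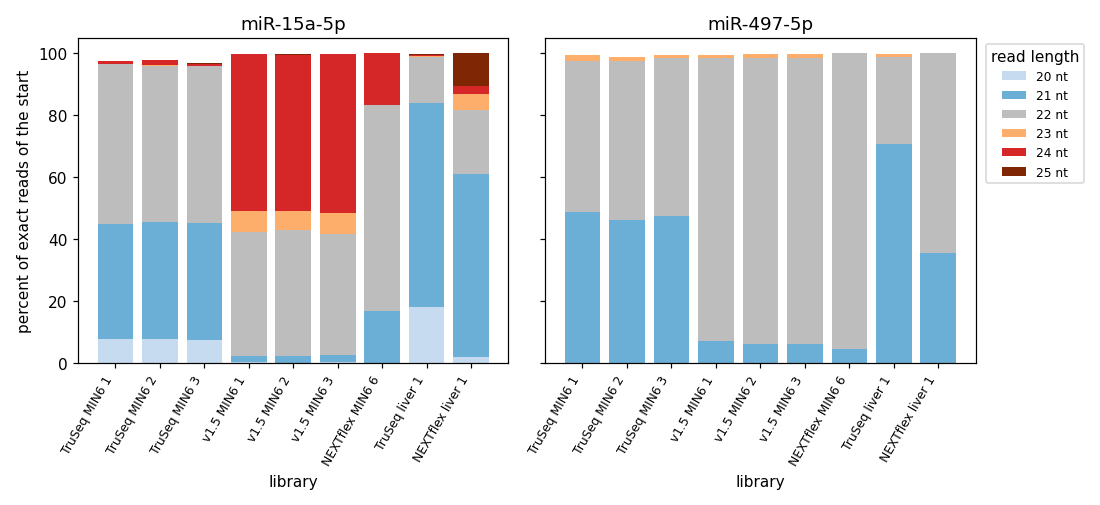
Percent of the exact reads of miR-15a-5p (left) and miR-497-5p (right) that have each length from 20 to 25 nt (y axis) in each of the 9 libraries (x axis). The 24-nt form of miR-15a-5p (red) takes 50.7% on average in the v1.5 libraries and 0.967% in the TruSeq libraries of MIN6, and the 21-nt forms (mid blue) are larger in TruSeq and in liver.

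Reads with a single untemplated base at the 3′ end, often added by terminal nucleotidyltransferases, also differed between libraries. In miR-322-5p, 34.3% of the reads in the TruSeq liver library ended in an untemplated U (434 of 1267 reads, Wilson 95% interval 31.7% to 36.9%). No such read was among the 528 in the NEXTflex liver library, which allows a share of up to 0.568% by counting error only. These 528 reads rested on only 12 distinct alignments. An untemplated A ended 8.37% of the miR-322-5p reads in the TruSeq liver library and 0.379% in the NEXTflex liver library. In miR-16-5p an untemplated A ended 6.72% (6.56% to 6.88%) of the reads in the TruSeq liver library and 10.4% (10.3% to 10.6%) in the NEXTflex liver library, but 0.356% ± 0.0119 in TruSeq MIN6, 0.584% ± 0.0560 in v1.5 MIN6 (SD, n = 3 each) and 1.12% (1.08% to 1.16%) in NEXTflex MIN6. Both liver libraries were above all 7 MIN6 libraries. miR-195-5p had an untemplated A on 6.76% and 5.40% of its reads in the liver libraries, against 0.361% ± 0.0400 in TruSeq MIN6, 1.86% ± 0.316 in v1.5 MIN6 and 0 of 14284 reads in NEXTflex MIN6, which allows a share of up to 0.0210%. In miR-15a-5p the share with an untemplated A was 7.67% and 7.70% in the TruSeq and NEXTflex liver libraries, against 0.396% ± 0.169 in TruSeq MIN6, 1.02% ± 0.0481 in v1.5 MIN6 and 0 of 9307 reads in NEXTflex MIN6 (up to 0.0322%). In miR-497-5p it was 1.14% (0.665% to 1.93%) in the TruSeq liver library and at most 0.292% in a TruSeq MIN6 library, but 3.00% ± 0.409 in v1.5 MIN6, above the TruSeq liver value, and 3.39% (1.99% to 5.71%) in the NEXTflex liver library and 4.46% (3.97% to 4.998%) in NEXTflex MIN6. In miR-15b-5p it was at most 0.849% in every library. An untemplated G on miR-16-5p was at 2.95% (2.89% to 3.02%) in NEXTflex MIN6 and 1.37% (1.31% to 1.43%) in NEXTflex liver, and at 0.00793% ± 0.00535 in TruSeq MIN6. For miR-15a-5p an untemplated U ended 4.52% ± 0.469 of the reads in TruSeq MIN6 and 0.972% ± 0.0431 in v1.5 MIN6. The share was 4.78% in NEXTflex MIN6 and 7.43% and 5.25% in the TruSeq and NEXTflex liver libraries. For miR-15b-5p an untemplated U was at 6.11% and 4.92% in these liver libraries. Its share was 0.0766% ± 0.0225 in TruSeq MIN6, 0.114% ± 0.0398 in v1.5 MIN6 and 1.35% in NEXTflex MIN6.

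The order of the members by level was led by miR-16-5p in all 9 libraries, where it ranked from place 10 to place 79 among the 386 named 5′ ends. In TruSeq MIN6 it was followed by miR-15b-5p, miR-195-5p, miR-15a-5p and miR-497-5p, and in v1.5 MIN6 by miR-15a-5p, miR-15b-5p, miR-497-5p and miR-195-5p. In both groups each of these was apart from the next without overlap of the 3 libraries, and only miR-322-5p and miR-503-5p at the bottom were not. The NEXTflex MIN6 library had the order of TruSeq MIN6. In liver the order after miR-16-5p was miR-15a-5p, miR-195-5p, miR-322-5p, miR-497-5p and miR-15b-5p in TruSeq, and miR-15a-5p, miR-195-5p, miR-15b-5p, miR-322-5p and miR-497-5p in NEXTflex, where miR-15a-5p and miR-195-5p did not differ beyond counting error (miR-15a-5p held 49.4% to 51.2% of the reads of the pair, Wilson 95% interval).

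Across the 9 libraries the profiles of the members differed. The Pearson correlation of log2(RPMM + 1) was 0.99 between miR-16-5p and miR-195-5p, 0.56 between miR-15a-5p and miR-497-5p, and -0.58 between miR-15a-5p and miR-16-5p. These points share preparations and tissues, so the values are descriptions over 9 libraries without a test. Among 238 other entries with a mean of at least 100 RPMM, those most like miR-15a-5p were miR-140-3p (0.98), miR-17-5p (0.97) and miR-20a-5p (0.97). Those most like miR-16-5p were let-7d-3p (0.96), miR-328-3p (0.88) and miR-802-5p (0.80), and for miR-195-5p they were let-7d-3p (0.91), miR-328-3p (0.88) and miR-26b-5p (0.76). For miR-15b-5p they were let-7i-5p (0.92), miR-483-3p (0.92) and a 5′-shifted entry of miR-483-3p (0.91), and for miR-497-5p a 5′-shifted entry of miR-383-5p (0.95), miR-29a-5p (0.94) and miR-93-5p (0.94). For miR-322-5p they were miR-143-3p (0.99), a 5′-shifted entry of miR-142-5p (0.96) and a 5′-shifted entry of miR-122-5p (0.95).

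Starts shifted by up to 2 nt from the reference, which change the seed, varied between the members. In miR-16-5p they made up 0.225% to 1.18% of the reads within 2 nt over the 9 libraries. In miR-497-5p they made up 5.46% to 6.25% in TruSeq MIN6 and 2.58% to 4.02% in v1.5 MIN6, and in miR-15a-5p 4.58% in the NEXTflex liver library. The highest value with more than 3 reads was that of miR-322-5p in the NEXTflex liver library, at 18.9% (528 of 651 reads at the reference start), where the 528 reads rested on only 12 distinct alignments, against 40 for the 1267 reads of the TruSeq liver library.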

How the data were processed

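Small RNA-seq was analysed from 9 libraries. Per the labels, the authors trimmed reads with cutadapt and aligned them to mm9 with Bowtie (versions not given in the sources used here). According to the methods of the study, 4 bases were trimmed from both ends of NEXTflex reads. The deposited files hold 1 expected count per distinct alignment, and a read that aligned equally well to several places is split evenly. These sums exceeded the study's numbers of mapped reads, which are the denominators of RPMM, by 0.264% to 8.41%.

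Counts were summed by 5′ end. Of 414 entries in the study's tables, 408 were placed by equal values (relative tolerance 3e-05), which gave 378 names with copies merged. miR-322-5p, miR-503-5p and 6 partner arms were added from their places on the hairpins, for 386 in all. Values of miR-15a-5p, miR-15b-5p, miR-16-5p, miR-195-5p and miR-497-5p therefore equal those tables by construction. miR-322-5p and miR-503-5p were placed from mismatches (edit letters are read bases) and from distances between the arms of their hairpins in GRCm38. Coordinates were not converted between builds.

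v1.5 and TruSeq were compared with edgeR 4.0.16 (quasi-likelihood, counts rounded, library size set to mapped reads, at least 10 counts in 3 libraries, Benjamini-Hochberg over all features). Alternatives were DESeq2 1.42.0, TMM factors, other filters and leaving out each library, for entries and, except DESeq2, for forms. Standard errors were derived as log2 fold change over the root of the F statistic. Folds without a test had 1 RPMM added, and counts of entries past 2-fold took those with at least 10 RPMM in a group. On simulated data the test on 362 entries recovered 99.0% of 2-fold and 100% of 4-fold changes and called 2.48% of unchanged entries. The test on 1723 forms recovered 92.8% and 100% and called 0.409%. Each simulation changed 200 features at known library sizes. In the real data 90.1% of entries and 89.5% of forms passed, so these rates need not carry over. R 4.3.3, Python 3.11.15, pandas 2.3.3 and SciPy 1.17.1 were used.

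The members and lists were chosen with earlier results of these data known. Named beyond the members were their partner arms, the 3 entries most correlated with each (mean of at least 100 RPMM) and the 3 most abundant forms of each. Forms stated as named after their values were seen are additions to this list.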

Additional observations from a re-analysis of the deposited data

Results flagged for a closer look

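In 4 cases the fold values lay on opposite sides of 1 in the groups compared, with every library of a group on the same side. In 2 of them, those of miR-16-1-3p and miR-322-5p, a fold is of values below 10 RPMM. None of these differences was tested, since the NEXTflex and liver groups hold 1 library each. miR-497-5p was higher in NEXTflex than in TruSeq in MIN6 (3.00-fold) but lower in liver (0.393-fold). miR-16-1-3p was 2.94-fold higher in NEXTflex in MIN6 and 0.291-fold in liver, where it had 48 reads with TruSeq and 2 with NEXTflex (ratio of RPMM 0.0478, exact 95% interval 0.00562 to 0.182). miR-322-5p was at 1.15-fold in MIN6, on 7 reads with NEXTflex and 3 in all with TruSeq, and at 0.484-fold in liver. The ratio of its RPMM in MIN6 was 2.33 with an exact 95% interval of 0.532 to 14.0, which includes 1, so that no direction in MIN6 was detectable. miR-195-5p was at 1.10-fold in liver over MIN6 within TruSeq and at 0.705-fold within NEXTflex. All folds are of RPMM with 1 RPMM added. No group had enough libraries for a search for single outlying libraries.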

How the results depend on the processing

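All 5 tested members kept their direction and passed the test under every alternative run: TMM factors, DESeq2 size factors, the DESeq2 test, the sum of all counts as library size, no filter, a filter at 100 RPMM, exact alignments only, starts within 2 nt summed, and without each library in turn. The log2 fold change ranged from 2.22 to 2.64 for miR-15a-5p, 1.31 to 1.73 for miR-497-5p, -2.51 to -2.10 for miR-16-5p, -2.58 to -2.18 for miR-195-5p and -0.94 to -0.52 for miR-15b-5p. The low ends came with the scaling factors, since TMM and DESeq2 size factors moved the median of all entries from 0.31 to -0.03 and -0.06. With these factors 171 entries were higher and 166 lower (TMM) and 169 higher and 169 lower (DESeq2 size factors), against 188 and 138. miR-15b-3p reversed with TMM (-0.14, adjusted p = 0.0572) and DESeq2 size factors (-0.17, adjusted p = 0.0250). Without a filter miR-503-5p also passed, so that 3 members were higher in v1.5. The 23-nt form of miR-195-5p, which did not pass, ranged from -0.41 to 0.081 over the fits without 1 library and turned positive in 3 of them, and was at -0.70 with TMM factors (adjusted p = 0.0787). TMM factors moved the median of all forms by -0.61, with 800 forms higher and 745 lower against 946 and 596. In the NEXTflex to TruSeq comparison in liver, 1 member rather than 2 was more than 2-fold lower with 5 RPMM added, with starts within 2 nt summed, and with the sum of all counts as library size, and 2 rather than 1 were higher with that library size. The replicate block left 2 members higher and 3 lower, with 190 and 139 of all entries called. Same-numbered TruSeq and v1.5 libraries deviated together with r of 0.25, -0.02 and 0.35, and differently numbered ones with r of -0.35 to 0.19. These values do not settle whether the numbers mark pairs. The main test took them as unpaired, and the replicate block is the paired alternative. Depth limits miR-322-5p and miR-503-5p in MIN6, where 3 reads correspond to 0.117 to 0.452 RPMM per library, and the number of distinct alignments limits the NEXTflex values. Preparation, RNA, extraction, platform and facility cannot be told apart for NEXTflex in MIN6, and all liver values rest on a single animal.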
